A study of Mus musculus with 20 samples.

Results

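The cells described here are habenula cells at embryonic day 15 (E15) that carry Cbln2 transcripts, chosen by 1 rule on 1 gene. A well of the 2 E15 plates entered with at least 1000 counts (spike-ins and mitochondrial genes not counted), at least 500 detected genes and a mitochondrial share of at most 20%, and it was a Cbln2 well where its deposited Cbln2 count was at least 3. This gave 305 Cbln2 wells of 490 kept E15 wells, 77 of 188 on plate 1 and 228 of 302 on plate 2. The other 185 kept wells, 111 and 74, were the comparison, and 4811 wells were kept over all 20 plates of the study.

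Single cells of the mouse habenula were profiled on 384-well plates with Cel-seq2, a chemistry that counts poly-A transcripts by unique molecular identifiers (UMIs). The 2 E15 plates, labelled E15-1 and E15-2, came from habenula tissue of mice of the Brn3a-tauLacZ strain, whose name carries the former symbol of Pou4f1. The labels do not state the allele carried, the cell sorting, the sex or any pooling of embryos. The same strain supplied the other plates of a series from E11 to the adult (E11, E12, E13, E18, P4, P7 and adult, named by embryonic or postnatal day), and C57BL/6 mice supplied 5 plates at E18 from the left, the right or both sides of the habenula. A plate is the deposited sample and served as the replicate, and nothing says that plates came from separate litters. The p-values rest on how the difference between Cbln2 wells and other wells varies between plates, which may be technical. With 4 sums at E15, the test borrows this spread in large part from other genes. It is thus not a measure of 1 gene's own variation, and a gene that differs on 1 plate alone can pass, as Apoe did. Differences in level between plates are not part of that spread.

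Cbln2 encodes a secreted protein of the cerebellin family, which binds neurexins on the presynaptic side and delta-type glutamate receptors on the postsynaptic side and so organizes synapses. The habenula is a paired structure of the dorsal diencephalon with a medial and a lateral division, most of whose neurons release glutamate and express the POU-domain factor Pou4f1. Its neurons are born from progenitors beside the third ventricle and send their axons to the midbrain in the fasciculus retroflexus, guided by receptors such as Dcc, a netrin receptor, and Robo3, known for its part in the crossing of the midline.

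Cbln2 itself chose the wells, so its values are given as a description. In the Cbln2 wells the count ran from 3 to 23.1 with a median of 7.01 on plate 1, and from 3 to 44.2 with a median of 9.01 on plate 2. These wells held 90.8% and 97.6% of the Cbln2 counts of their plates. Summed over wells, Cbln2 (chromosome 18, 86711110 to 86718283, plus strand, GRCm38) stood at 644 and 935 CPM in the Cbln2 wells of plates 1 and 2, against 71.6 and 139 CPM in the other wells, where CPM is counts per 1e6 counts without spike-ins. At the threshold, 14 and 16 Cbln2 wells held 3 UMIs, and 17 and 23 of the other wells held 2. The wells at 2 had a median of 2.31 and 4.16 Cbln2 counts per 10000 counts, and those at 3 had 3.25 and 5.35. On plate 2 the other wells at 2 UMIs thus carried Cbln2 at a higher rate than the Cbln2 wells at 3 UMIs on plate 1. Of the other wells, 65 of 111 and 30 of 74 held no Cbln2 count.

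The rule also chose deeper wells. The median depth was 11601 counts in the Cbln2 wells and 7446 in the other wells of plate 1, and 9577 and 4764 on plate 2. Wells of both kinds shared each plate's library, and both plates used the same 384 well barcodes, so a barcode found on both does not mark a shared cell. Plate 1 held 1842274 counts in kept wells and plate 2 held 3365437. Over all 20 plates the totals ran from 758697 to 7760372 counts, and the share of wells kept from 14.1% to 90.1%.

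**Figure D1:**
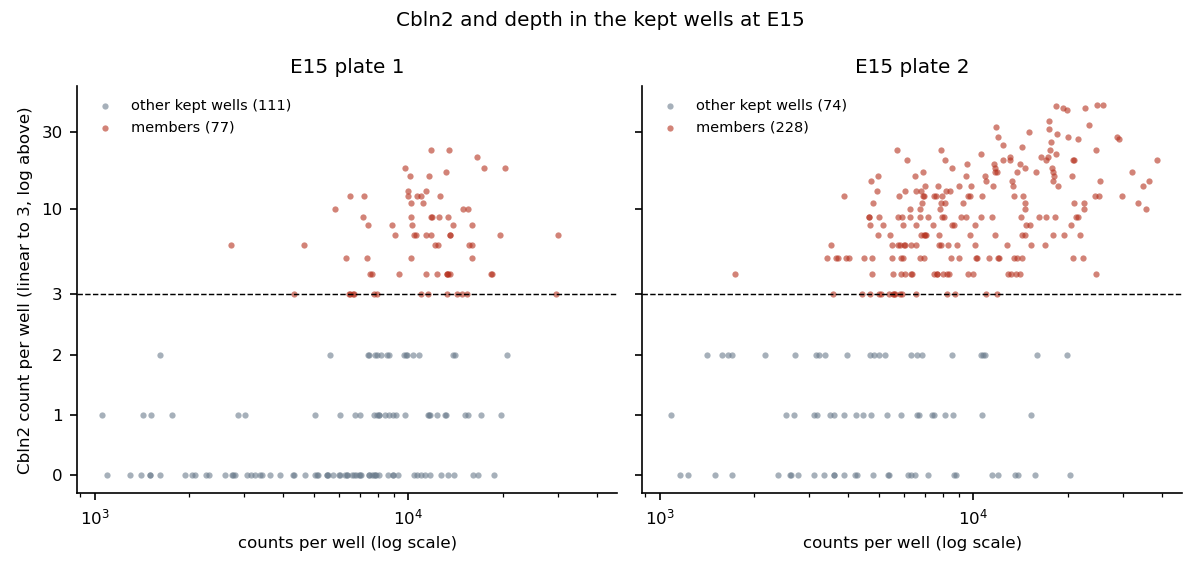
Each point is a kept well of E15 plate 1 (left) or plate 2 (right), with its total counts on a log axis and its Cbln2 count on an axis that is linear to 3 and logarithmic above; the dashed line is the threshold of 3. Cbln2 wells (red, 77 and 228) lie further right than the other kept wells (grey, 111 and 74), with medians of 11601 and 9577 counts against 7446 and 4764.

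Most Cbln2 wells carried marks of glutamatergic habenula neurons. Pou4f1 was detected in 293 of the 305 (96.1%) and in 131 of the 185 other wells (70.8%). With every well thinned to 2000 UMIs the shares were 63.6% and 70.0% in the Cbln2 wells of plates 1 and 2, against 45.0% and 63.1% in the other wells, a smaller gap on plate 2 than without thinning. Both Pou4f1 and Slc17a6, the vesicular glutamate transporter VGLUT2, were detected in 256 (83.9%) and in 105 of the 185 other wells (56.8%). Slc17a6 alone, after thinning, was found in 49.4% and 38.8% of the Cbln2 wells and in 50.0% and 47.7% of the others. Robo3 together with Dcc was found in 292 of the Cbln2 wells (95.7%) and in 121 of the others (65.4%). The Cbln2 wells were the deeper ones. After thinning, Robo3 was found in 72.7% and 76.7% of the Cbln2 wells against 41.0% and 50.8% of the others, and Dcc in 98.7% and 98.2% against 96.0% and 93.8%. Slc32a1, the vesicular GABA transporter, was detected in 0 of 305, which allows a share of wells with a UMI of up to 0.984% (3 counts of the total) and sets no limit on cells expressing the gene. A sum of at least 3 counts of Gad1, Gad2 and Slc32a1 was found in 1 Cbln2 well (0.328%). Intervals and limits cover counting error only. The 10 neuron markers were all present, and their summed level was 10363 and 10908 CPM in the Cbln2 wells and 9690 and 9269 CPM in the other wells.

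Markers of microglia, blood, vessels and inhibitory neurons were low in the Cbln2 wells, and those of thalamic neurons were not. The 10 thalamic neuron markers summed to 2629 and 2232 CPM, against 2015 and 1926 CPM in the other wells, and 2 of 9 tested, Foxp2 and Lhx9, were called higher and 0 lower. By a rule on Cbln2 per 10000 counts the list had 1 higher and 3 lower, and with equal numbers of wells per depth bin 0 higher and 1 lower; its part in the results was not tested. The 11 astrocyte and oligodendrocyte markers summed to 429.7 and 204 CPM, against 479.8 and 339 CPM, with Gfap, Olig1 and Sox10 at 0 in the Cbln2 wells of both plates. Gfap and Olig1 were at 0 in the other wells too. The 9 microglia markers summed to 10.4 and 15.6 CPM, with 5 of the 9 at 0 on plate 1 and 0 of the 9 at 0 on plate 2. The 12 vascular markers summed to 36.4 and 29.8 CPM, with Cldn5 and Col1a1 at 0 on both plates. Cldn5 was at 0 in the other wells of both plates as well. The 13 inhibitory neuron markers summed to 6.24 and 25.7 CPM, against 46.6 and 10.4 CPM in the other wells. On plate 2 the sum was thus higher in the Cbln2 wells, but most of it was Sst, at 18.7 CPM against 4.15 CPM in the other wells. Sst is also on the lateral habenula list, and 1 Cbln2 well of plate 2 held 23.1 counts of the inhibitory list. Dlx1, Dlx2, Dlx5 and Dlx6 were at 0 in the Cbln2 wells of both plates, and Dlx5 and Dlx6 in the other wells as well. The 19 cell cycle markers summed to 110.2 and 58.3 CPM, and the 8 erythroid markers to 2.08 and 1.04 CPM. In the other wells these lists stood at 275 and 81.0 CPM, and at 1.14 and 2.08 CPM. Among the other wells the vascular markers reached 465 CPM on plate 1 and the microglia markers 809 CPM on plate 2. On the other plate of each the lists stood at 64.4 and 11.4 CPM. On plate 1, 4 wells held at least 10 vascular counts. On plate 2, 2 wells held at least 10 microglia counts and 1 held 12 vascular counts. None of these 7 wells was a Cbln2 well, and all had no Pou4f1 count. At depths of 3249 to 15789.5 counts, 1 of these 7 held a single Cbln2 count.

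The main question was which other genes differ between the Cbln2 wells and their neighbours. Counts were summed per plate and class, and edgeR's quasi-likelihood test was run with the plate as a block on 9946 genes, with Benjamini-Hochberg adjustment at 0.05. It called 325 genes, 3.27% of those tested, 152 higher (1.53%) and 173 lower (1.74%) in the Cbln2 wells. Cbln2 is among the 152. Without the block, which ignores that both classes share a plate, 0 genes passed and 480 had an unadjusted p under 0.05, and DESeq2 with the block called 64. With the spread pooled over the stages, the count was 477, and it was 361 without plate 1 and 104 without plate 2. The genes called higher were long: their median span was 282 kb and the median gene had 66.1% of its E15 counts unspliced, against 28.3 kb and 12.5% over all tested genes, and 38.2 kb and 13.9% for those called lower. Of the 152 genes called higher, 47 spanned over 500 kb (30.9%), against 215 of all tested genes (2.16%). The counts by gene list below stand beside shares of 1.53% higher and 1.74% lower over all tested genes. They were not compared with genes of like span. On spliced counts alone, 53 genes were higher and 108 lower.

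Partners of the cerebellins were higher in the Cbln2 wells where they passed the test. Of the 10 genes of the list tested besides Cbln2, 4 rose, 0 fell and 6 did not pass, where 1.53% of all tested genes rose. Their median log2 difference was 0.63 against -0.0007 over all genes. On spliced counts 1 of the 8 tested rose. Nrxn3, a neurexin, stood at 2366 and 2329 CPM in the Cbln2 wells of plates 1 and 2, against 1557 and 1388 CPM in the other wells (log2 difference 0.68 ± 0.11, adjusted p = 0.000859). Nrxn2 stood at 302 and 346 CPM against 239 and 237 CPM, which missed the threshold (adjusted p = 0.12). For Nrxn3 and Nrxn2 both Cbln2 sums lay above both other sums. Grid1, which encodes the delta-1 glutamate receptor, was at 19.8 and 58.3 CPM against 5.68 and 24.9 CPM (log2 difference 1.42 ± 0.38, adjusted p = 0.0473). The classes overlapped for Grid1, since its 19.8 CPM in the Cbln2 wells of plate 1 lay below the 24.9 CPM in the other wells of plate 2. Among the neuroligins, postsynaptic partners of the neurexins, Nlgn1 rose (0.60 ± 0.14), and Nlgn2 (0.12) and Nlgn3 (1.00) did not pass. The other cerebellins were low: Cbln1 was at 9.36 and 57.6 CPM against 12.5 and 47.8 CPM and Cbln4 at 14.6 and 22.2 CPM against 1.14 and 22.9 CPM, and Cbln3 was detected at no more than 2.27 CPM in any of the 4 sums. Nrxn3, Cadm2, Robo3 and Sdk2 had been picked as companions of Cbln2 from these data, so their direction is not independent evidence.

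Axon guidance receptors moved in both directions. Of 26 tested, 2 rose and 4 fell, with a median log2 difference of 0.09. Robo3 was at 1133 and 1136 CPM in the Cbln2 wells of plates 1 and 2, against 468 and 689 CPM in the other wells (log2 difference 1.01 ± 0.13, adjusted p = 0.000162). The Cbln2 wells were alike on both plates, and both other sums were lower. Dcc went the other way on both plates, at 7231 and 4849 CPM against 13024 and 9550.3 CPM (log2 difference -0.90 ± 0.09, adjusted p = 9.37e-06). Every Cbln2 well held Dcc, with medians of 58.5 and 43.9 counts per 10000. The median of the other wells was 96.1 on plate 1 but 35.2 on plate 2, so on plate 2 the higher sum came from wells at the top of the range, up to 990.5 per 10000 against 298 in the Cbln2 wells. Dcc was detected in 97.3% of the other wells of each plate. On spliced counts alone the difference was -0.43 and did not pass (adjusted p = 0.557). Unc5c, a netrin receptor linked to repulsion, was at 119 and 21.9 CPM against 342 and 156 CPM (log2 difference -2.04 ± 0.23, adjusted p = 2.83e-05). The fall of Unc5c rested in part on few wells, as 8 of 111 other wells of plate 1 and 1 of 74 on plate 2 held 10 or more counts. Ephb1, an ephrin receptor, rose (0.86 ± 0.16), whereas Epha7, of the same family, fell (-0.46 ± 0.12), and so did the plexin Plxnb2 (-1.04 ± 0.18). Of the 21 guidance ligands tested, the semaphorin Sema6d rose (0.68 ± 0.14) and its relative Sema6a fell (-0.60 ± 0.15).

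Of 67 adhesion molecules tested, the longest list, 12 rose and 3 fell, with a median log2 difference of 0.17. Over all tested genes 1.53% rose and 1.74% fell. The rises were 2 of 54 tested on spliced counts and 6 of 59 with equal numbers of wells per depth bin. Cadm2, a synaptic adhesion molecule of the immunoglobulin superfamily, was at 3691 and 3523 CPM against 1408 and 1984 CPM (log2 difference 1.12 ± 0.12, adjusted p = 1.97e-05). Lsamp, a GPI-anchored member of the IgLON family, was at 3224 and 4106 CPM against 1094 and 2012 CPM (log2 difference 1.30 ± 0.12, adjusted p = 4.55e-06). Cntnap2, a neurexin-like protein, was at 229 and 1592 CPM against 109 and 395 CPM (log2 difference 1.64 ± 0.18, adjusted p = 2.23e-05). In each of the 3 the Cbln2 wells were higher on both plates, but for Cntnap2 the 395 CPM in the other wells of plate 2 exceeded the 229 CPM in the Cbln2 wells of plate 1. On spliced counts Cntnap2 did not pass (log2 difference 0.69 ± 0.26, adjusted p = 0.286). Negr1, another IgLON gene, rose less (0.85 ± 0.16). The falls were Pcdh19, a protocadherin (-2.26 ± 0.42), Flrt3 (-0.64 ± 0.15) and the teneurin Tenm4 (-0.89 ± 0.24). Sdk2, a sidekick adhesion molecule named as a companion of Cbln2, was at 183 and 287 CPM against 142 and 243 CPM and did not pass (log2 difference 0.31 ± 0.15, adjusted p = 0.414). Of 28 genes of axon growth and the cytoskeleton, the microtubule protein Mapt (0.77 ± 0.12) and the intermediate filament Ina (0.66 ± 0.12) rose and Stmn1 (-0.46 ± 0.12) fell.

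Ion channel genes moved in both directions. Of 38 ion channel genes, 5 rose and 3 fell (1.53% and 1.74% over all tested genes), with a median log2 difference of 0.47. Kcnma1, the pore of the calcium-activated BK potassium channel, was at 965 and 2640.1 CPM against 334 and 1517 CPM (log2 difference 1.15 ± 0.14, adjusted p = 6.95e-05). Kcnd2, a Kv4 potassium channel, was at 867 and 2135 CPM against 219 and 1265 CPM (log2 difference 1.32 ± 0.18, adjusted p = 0.000259). For both, the other wells of plate 2 lay above the Cbln2 wells of plate 1. Kcnh7 (0.75 ± 0.16) and the calcium channel Cacna1e (0.97 ± 0.23) rose as well. Cacna1e was at 70.7 and 563 CPM against 64.8 and 209.9 CPM, a difference carried by plate 2, and without that plate it was 0.18 (adjusted p = 1.0). Cacna2d1, an auxiliary subunit of calcium channels, had the strongest fall of the list, at 207 and 56.9 CPM against 779 and 801 CPM (log2 difference -2.83 ± 0.27, adjusted p = 4.79e-06). Its counts in the other wells were concentrated, with 24 of 111 and 8 of 74 wells at 10 counts or more, against 2 of 77 and 3 of 228 Cbln2 wells. Kcnip4, which binds Kv4 channels, and Kcnq3 fell (-1.41 ± 0.30 and -1.10 ± 0.26).

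Of 29 transmitter receptor genes tested, 6 rose and 1 fell (1.53% and 1.74% over all tested genes), with a median log2 difference of 0.26. The AMPA receptor subunit Gria1 was at 211 and 765 CPM against 100.1 and 343 CPM (log2 difference 1.14 ± 0.15, adjusted p = 9.91e-05), and Gria4 (1.14 ± 0.18), the kainate receptor subunit Grik4 (1.39 ± 0.24) and the GABA-A receptor subunit Gabra2 (1.78 ± 0.27) also rose, with 2 others. Gabra2 was at 63.5 and 122 CPM against 12.5 and 45.7 CPM, so all 4 values were low and the 2 classes did not overlap. The fall was the GABA-A subunit Gabrg3 (-1.76 ± 0.47), at 9.35 and 16.7 CPM against 9.09 and 89.5 CPM, a difference carried by plate 2. Of 22 genes of vesicle release 3 rose, the active zone genes Pclo (0.87 ± 0.18), Rims1 (0.65 ± 0.15) and Rims2 (0.60 ± 0.15). On spliced counts Rims1 was at 0.08 (adjusted p = 0.968) and Rims2 at 0.80 (adjusted p = 0.109). Of 2 tested genes of transmitter phenotype 0 passed, and Slc17a6 was at 476 and 259.5 CPM against 425 and 351 CPM (log2 difference -0.11 ± 0.15, adjusted p = 0.855).

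Among 58 transcription factors tested, 5 rose and 10 fell. Those that rose included the ETS factor Etv1 (0.85 ± 0.15), the forkhead factor Foxp2 (0.59 ± 0.13), the nuclear receptor Nr4a2 (0.66 ± 0.16) and the LIM-homeodomain factor Lhx9 (0.43 ± 0.12). Pou4f1 was at 674 and 792 CPM against 453 and 666 CPM, higher on both plates but short of the threshold (log2 difference 0.42 ± 0.13, adjusted p = 0.087). The nuclear factor I gene Nfia was at 210.1 and 80.5 CPM against 637 and 412 CPM (log2 difference -1.95 ± 0.17, adjusted p = 2.04e-06), with no overlap of the classes, and Nfib fell by less (-0.93 ± 0.14). Onecut2 was at 148 and 124 CPM against 451 and 395 CPM (log2 difference -1.63 ± 0.15, adjusted p = 3.38e-06), and Ebf2 was lower as well (-2.13 ± 0.33). The other 6 falls of the list are not named here.

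Of the lists for the 2 divisions of the mature habenula, only few genes could be tested at E15. Among 8 tested medial habenula genes 3 rose, and 7 genes of that list were too low. Nwd2 was at 695 and 3030.2 CPM against 158 and 1285 CPM (log2 difference 1.64 ± 0.16, adjusted p = 5.02e-06). Tac1, the precursor of substance P, was at 409 and 308 CPM against 171 and 209.9 CPM (log2 difference 0.93 ± 0.17, adjusted p = 0.00237), and Etv1 was the third. Among 5 tested lateral habenula genes, the muscarinic receptor gene Chrm3 fell (-1.42 ± 0.30) and 4 did not pass. The log2 difference was above 0 for 4 of these 5 (median 0.42) and for 6 of the 8 medial genes (median 0.64). Summed, the lateral list was at 1216 and 995 CPM in the Cbln2 wells against 1124 and 984 CPM in the others. The medial list was at 2282 and 5179 CPM against 1238 and 3022 CPM. Chat, which makes acetylcholine, was no higher than 2.43 CPM in any sum. Gpr151, a receptor gene of mature habenula neurons, was found in 0 of 77 Cbln2 wells on plate 1 and in 52 of 228 on plate 2, against 0 of 111 and 8 of 74 other wells. After thinning, the shares on plate 2 were 7.05% and 6.15%. Gpr151 and Pou4f1 are named after their values were seen. Of 10 tested genes for neuropeptides and their processing, the convertase gene Pcsk2 (0.95 ± 0.15) and Tac1 rose.

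Several long noncoding RNAs were among the strongest rises. Gm45341 (chromosome 8, 50117745 to 50517889, minus strand) was at 372 and 899.6 CPM against 92.1 and 401 CPM (log2 difference 1.54 ± 0.17, adjusted p = 2.07e-05). Gm45455 (chromosome 8, 50201613 to 50517680) lies inside it on the same strand and followed it (1.54 ± 0.17), so how reads were divided between the 2 is uncertain. Gm45323, a separate transcript nearby (chromosome 8, 49959483 to 50013384), also rose (1.31 ± 0.25). A pair of genes chosen after their values were seen flank Pou4f1 (chromosome 14, 104461676 to 104467999): D130079A08Rik (104288431 to 104459336) was at 131 and 144 CPM against 45.5 and 70.7 CPM (log2 difference 1.29 ± 0.21, adjusted p = 0.0012), and D130009I18Rik (104612791 to 104966783) was at 78.0 and 212 CPM against 15.9 and 123 CPM (log2 difference 1.27 ± 0.26, adjusted p = 0.00714). Gm45323 was chosen in the same way. Of 92 genes checked, those of the naming rule and these additions, of which some are not described here, 59 overlap another annotated gene, and whether counting used strand is not given, so their counts are uncertain to that extent. The largest other rises among genes of at least 50 CPM were Dok6, an adaptor of receptor tyrosine kinases (1.88 ± 0.26), Fstl5 (1.62 ± 0.24), the glycosyltransferase Galnt13 (1.60 ± 0.17), the neuregulin Nrg3 (1.38 ± 0.14) and Mdga2, which binds neuroligins (1.36 ± 0.19).

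Most tested progenitor genes were lower in the Cbln2 wells, and most tested genes of intermediate progenitors did not pass. Of 8 tested progenitor genes 6 fell and 0 rose, with a median log2 difference of -2.15. Pax6, a paired-box factor of progenitors, was at 61.3 and 20.8 CPM against 165 and 196 CPM (log2 difference -2.31 ± 0.29, adjusted p = 8.88e-05). The intermediate filament genes Vim (-1.16 ± 0.15) and Nes (-2.49 ± 0.39) and the Notch target Hes1 (-5.15 ± 0.72) fell as well. Hes1 was too low to be tested once the 7 wells with microglia or vascular markers were left out. Of 11 tested genes of intermediate progenitors 4 fell and 7 did not pass, with a median of -1.31. Neurod4 was at 6.24 and 2.08 CPM against 60.2 and 39.5 CPM (log2 difference -3.71 ± 0.47, adjusted p = 9.82e-05), and Gadd45g (-1.99 ± 0.40), Btg2 (-1.31 ± 0.27) and the proneural gene Neurog2 (-2.12 ± 0.45) were lower too. Neurog2 was found in 8 of 305 Cbln2 wells and 28 of 185 others. By plate it was found in 6 of 77 against 24 of 111 wells on plate 1, and in 2 of 228 against 4 of 74 on plate 2. With plate 1 alone at E15 and the spread pooled over stages, Btg2 was at -0.67 and Gadd45g at -1.40, less negative than with both plates. The summed progenitor list was at 641 and 319.8 CPM in the Cbln2 wells, against 1169 and 1151 CPM in the others. The median well did not follow the sums, at 8.0 and 3.0 counts of the list, not scaled for depth, in the Cbln2 wells and 7.0 and 2.0 in the others. At least 10 counts were held by 22 of 77 and 25 of 228 Cbln2 wells and by 41 of 111 and 9 of 74 other wells, 1 of which held 123 on plate 2. Without plate 2, with the spread pooled over stages, Pax6 (-1.37, adjusted p = 0.0776), Vim (-0.84, adjusted p = 0.145), Nes (-1.92, adjusted p = 0.176) and Hes1 (-2.84, adjusted p = 0.489) did not pass.

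The largest falls included genes of other cells. Apoe, a lipid carrier made by glia, was at 10.4 and 12.8 CPM against 12.5 and 759.5 CPM, a difference of plate 2. There 2 wells with microglia markers held 98.1% of the Apoe counts of the other wells, 94.7% of those of Selenop and 86.8% of those of the lysosomal protease gene Ctsd. Without the 7 wells with microglia or vascular markers the log2 difference was 0.02 for Apoe, -0.10 for Ctsd and -2.41 for Selenop, against -5.21, -2.08 and -6.11 with them, and that of the vascular gene Col4a2 was -0.27 in place of -1.76. The other falls of the top 10 hardly moved without these wells: Cacna2d1 was at -2.88, Pax6 at -2.30, the phosphodiesterase gene Pde1c at -2.17, Unc5c at -2.03, the zinc finger factor St18 at -2.09, Fabp7, a fatty acid carrier of radial glia, at -1.83, and the growth factor pleiotrophin, Ptn, at -1.98. Fabp7 was a difference of plate 2, at 39.5 and 13.5 CPM against 54.5 and 139 CPM in the full set, where 2 of 74 other wells held at least 10 counts, and without that plate it was -0.41 (adjusted p = 0.973). Ptn was at 217 and 57.9 CPM against 633 and 342 CPM in the full set (log2 difference -1.99 ± 0.19, adjusted p = 4.72e-06). In all, 401 genes passed without the 7 wells, 209 of them higher.

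**Figure D2:**
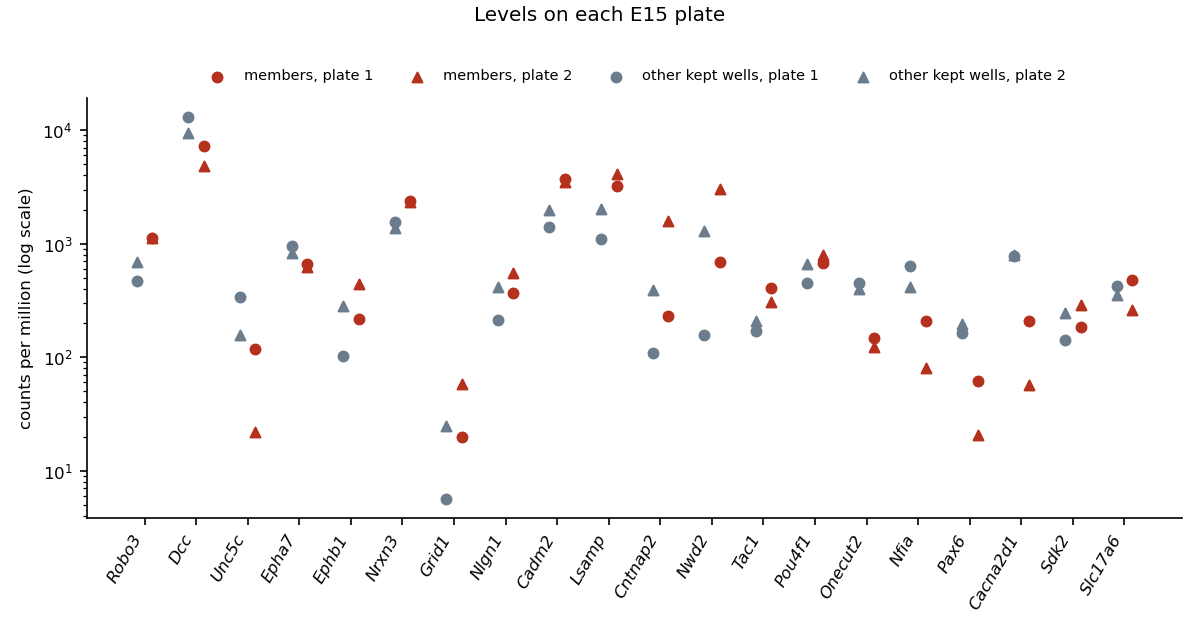
Levels in CPM on a log axis for 20 genes, with circles for E15 plate 1 and triangles for plate 2, red for the Cbln2 wells and grey for the other kept wells. Robo3, Cadm2 and Nrxn3 lie higher in the Cbln2 wells and are alike on both plates (1133 and 1136 CPM for Robo3), while Dcc, Nfia and Onecut2 lie lower in them on both plates.

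Because a count threshold favours deep wells, the comparison was repeated in 3 ways meant to limit the part of depth. With a rule of at least 3 Cbln2 counts per 10000, 73 and 241 wells qualified and median depths moved to 10303 and 8348 counts, against 7926 and 6737 in the rest. The Cbln2 wells thus stayed deeper under this rule. That rule called 292 genes (2.94%), 113 higher (1.14%) and 179 lower (1.8%), of which 69 and 125 were the same genes, called in the same direction, as under the count rule. With equal numbers of wells drawn from each depth bin of each plate, 57 and 52 per class, median depths were 10303 and 5994 counts in the Cbln2 wells and 9792 and 6432 in the others. This comparison, added after the data were seen, called 133 genes (1.61%), 47 higher (0.57%) and 86 lower (1.04%). Of the 152 genes called higher before, 44 were called again, and of the 173 called lower, 71 were, with 0 in the opposite direction. With every well thinned to 2000 UMIs, 4317 genes could be tested and 19 passed (0.44%), 8 higher (0.185%) and 11 lower (0.255%), all called in the same direction under the count rule. Cbln2, which chose the wells, is among the rises of all 3 repeats and among the 69 and the 44 called again.

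The rate rule and equal wells divided the named genes. Tac1 was larger, at 1.62 by the rate rule and 1.64 with equal wells, and close to their first values or above them were Gm45341 (2.02 and 1.73), Cntnap2 (1.69 and 1.76), Nwd2 (1.61 and 1.69) and Fstl5 (1.61 and 1.93). Robo3 kept 0.81 and 0.89, Nrxn3 0.63 and 0.59, Cadm2 0.60 and 0.78, and all of these passed under both. With thinned wells Cntnap2 (1.42), Nwd2 (1.34) and Cadm2 (1.03) passed, while Tac1 (0.72, adjusted p = 0.492), Gm45341 (1.13, adjusted p = 0.133), Fstl5 (1.81, adjusted p = 0.106), Robo3 (0.82, adjusted p = 0.118) and Nrxn3 (0.61, adjusted p = 0.124) did not. Other rises passed under neither the rate rule nor equal wells. Nlgn1 was at 0.30 and 0.11 (adjusted p = 0.517 and 0.911), Foxp2 at 0.01 and 0.25, Nr4a2 at 0.04 and 0.08, Dok6 at 0.78 and 0.71, and Mdga2 at 0.08 and 0.91. The same held for Etv1, Negr1, Sema6d, Kcnh7, Cacna1e, Pclo and Rims2. Gria1 lost its call by the rate rule alone (0.49, adjusted p = 0.0696). With equal wells alone Kcnma1 (0.47), Rims1 (0.33), Gria4 (0.79), Grik4 (1.22), Gabra2 (1.54), Ephb1 (0.72), Lhx9 (0.43), D130079A08Rik (0.95) and D130009I18Rik (0.56) did not pass. By list, equal wells left 1 rise among 31 ion channels tested, 1 among 22 transmitter receptors and 0 among 22 genes of vesicle release. Grid1 did not pass by the rate rule (log2 difference 1.04 ± 0.35, adjusted p = 0.115) and was too low to be tested with equal wells. Nrxn3 was then the single gene of the cerebellin list, Cbln2 aside, that passed either way. Of the falls, Dcc was at -0.93 and -1.16, Unc5c at -1.98 and -3.04, Nfia at -1.89 and -1.79, Onecut2 at -1.40 and -1.72, and Cacna2d1 at -2.87 and -3.10, and all 5 passed under both and with thinned wells. Pax6, Ptn and Vim did so too, as did the rises of Galnt13 and Lsamp. Other falls lost their call. Sema6a (-0.46 and -0.62), Stmn1 (-0.33 and -0.28) and Kcnq3 (-0.91 and -1.12) passed under neither. By the rate rule alone Epha7 (-0.41, adjusted p = 0.0741), Flrt3 (-0.51, adjusted p = 0.0642) and Tenm4 (-0.86, adjusted p = 0.0638) did not pass, and with equal wells alone Chrm3 (-1.12, adjusted p = 0.179) and Neurog2 (-1.70, adjusted p = 0.139) did not. Apoe, Col4a2, Gabrg3, Hes1 and Selenop were too low to be tested with equal wells. With thinned wells, which hold fewer counts, the falls of Btg2 (-1.91), Fabp7 (-1.91), Kcnip4 (-1.54), Nfib (-0.85), Pde1c (-1.86) and Plxnb2 (-1.10) did not pass, and their differences stayed near or beyond the first ones. The rises of Ina (0.62), Mapt (0.77), Kcnd2 (0.94), Nrg3 (0.95), Pcsk2 (0.79), Gm45455 (1.27) and Gm45323 (0.73) did not pass either, with Ina and Mapt near their first values.

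The test on spliced counts alone also ended calls. Among the rises, Cntnap2, Negr1 (0.26, adjusted p = 0.84), Nlgn1 (0.39, adjusted p = 0.744), Sema6d (-0.15, adjusted p = 0.912), Grik4 (0.51, adjusted p = 0.807), Gabra2 (1.09, adjusted p = 0.153), Rims1 and Rims2 did not pass. Neither did Foxp2 (0.40), Cacna1e (0.74), Kcnd2 (1.11), Kcnh7 (0.76), Galnt13 (1.87), Mdga2 (1.64) and D130079A08Rik (1.22). Of these Galnt13, Mdga2 and Kcnh7 had spliced differences at or above those on all counts, with larger standard errors (1.87 ± 0.48 against 1.60 ± 0.17 for Galnt13). Dok6, Gria4, Grid1, Nrg3, D130009I18Rik and the 3 Gm transcripts were too low to be tested in this way. Among the falls Dcc and Sema6a did not pass, and Chrm3, Ebf2, Gabrg3, Kcnip4 and Kcnq3 were not tested.

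**Figure D3:**
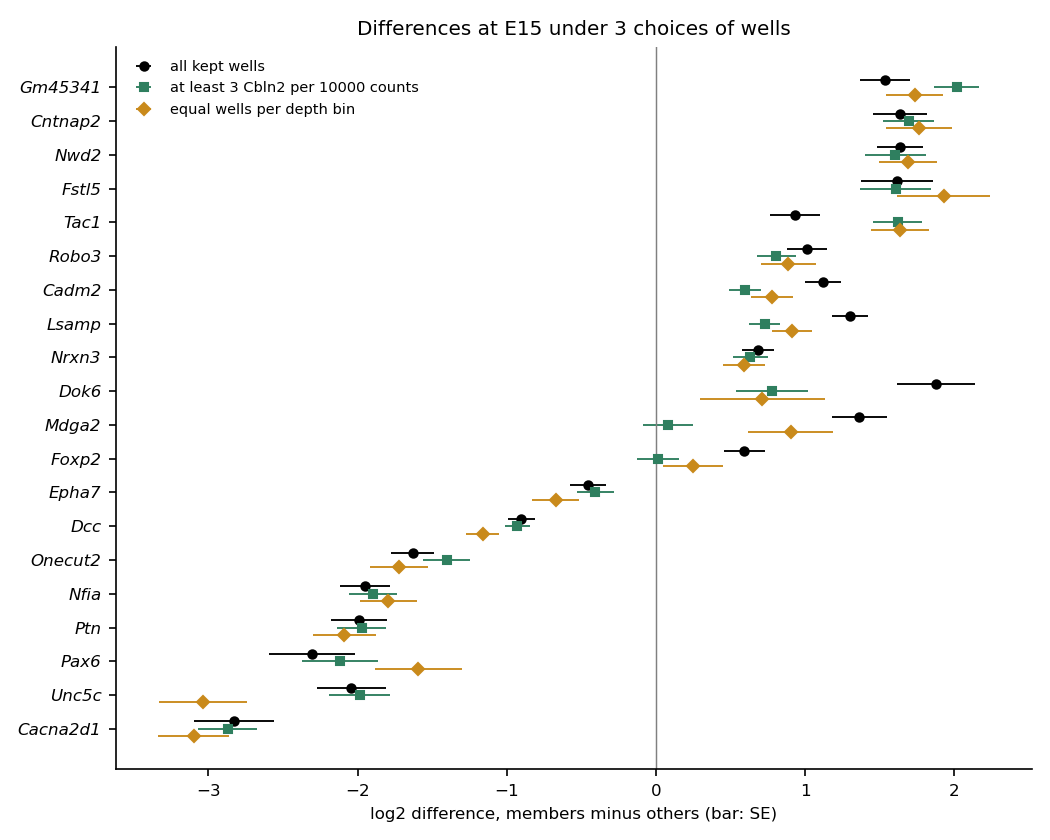
The log2 difference between Cbln2 wells and other wells at E15 for 20 genes (bars are standard errors), with all kept wells (black), with Cbln2 wells chosen by at least 3 counts per 10000 (green) and with equal numbers of wells per depth bin (orange). Differences for Dok6, Mdga2 and Foxp2 shrink under both other choices of wells, while that for Tac1 is larger and that for Dcc stays between -0.90 and -1.16.

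The comparison was repeated against other wells with Pou4f1. Against the 78 and 53 other wells with a Pou4f1 count, 251 of 9613 genes passed (2.61%), 138 higher (1.44%) and 113 lower (1.18%), of which 112 and 95 were also called against all other wells; without the block 0 passed and 401 had an unadjusted p under 0.05. Cbln2, which chose the wells, is among the 138 and the 112. Robo3 was at 0.82 ± 0.13, Nrxn3 at 0.54 ± 0.11 and Nwd2 at 1.39 ± 0.15. Dcc was at -0.96 ± 0.09, Onecut2 at -1.83 ± 0.14 and Nfia at -1.81 ± 0.16. Apoe was at 0.06 and Ctsd at -0.14 and neither passed. Of the tested progenitor genes 3 of 6 still fell, among them Nes (-2.43 ± 0.41). Other calls were lost against these wells. The rises of Foxp2 (0.50), Grid1 (1.24), Lhx9 (0.34), Nr4a2 (0.39) and Rims1 (0.53) did not pass. The falls of Fabp7 (-1.22), Neurog2 (-1.46), Kcnip4 (-0.87), Kcnq3 (-0.48), Stmn1 (-0.39), Col4a2 (-0.33) and Tenm4 (-0.23, against -0.89 before) did not either, and Hes1 and Selenop were too low to be tested.

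Another group at E15 was defined as wells with at least 3 counts each of Lmo1 and Cntn2, which mark immature habenula neurons in the list used. There were 28 and 14 such wells without the Cbln2 threshold, and 93 of the 305 Cbln2 wells met the same condition, so the groups are not exclusive in kind. Against them 92 of 8552 genes passed (1.08%), 61 higher (0.713%) and 31 lower (0.362%). Cbln2 is among the 61. Cntnap2 (2.92 ± 0.25), Gabra2 (3.09 ± 0.55) and Nwd2 (1.26 ± 0.17) were higher in the Cbln2 wells, and Dcc (-0.89 ± 0.10), Nfia (-1.18 ± 0.22) and Cacna2d1 (-1.42 ± 0.29) were lower. Robo3 (log2 difference 0.29 ± 0.15, adjusted p = 0.664), Nrxn3 (log2 difference -0.05 ± 0.14, adjusted p = 0.977) and Cadm2 (log2 difference 0.46 ± 0.14, adjusted p = 0.12) did not pass here. Onecut2, lower against all other wells, was at 0.16 against these.

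The Cbln2 wells were not alike on the 2 plates, a contrast of 2 libraries with no test. Among 4395 genes of at least 50 CPM in the Cbln2 wells, 66 were over 3-fold higher on plate 2 and 14 over 3-fold higher on plate 1. Nwd2 was at 695 CPM on plate 1 and 3030.2 CPM on plate 2, Cntnap2 at 229 and 1592 CPM, Nrg3 at 222 and 1302 CPM and Etv1 at 241 and 822 CPM. Pcp4, a calmodulin-binding protein gene, was at 17.7 and 526 CPM, and Syt6, a synaptotagmin, at 2.08 and 99.9 CPM. In the other direction Ntng1, a netrin-G adhesion molecule, was at 128 and 11.5 CPM, Unc5c at 119 and 21.9 CPM and Ptn at 217 and 57.9 CPM. Fos, an immediate early gene of activity and of the response to dissociation, was at 10.4 and 140.2 CPM in the Cbln2 wells and at 15.9 and 212 CPM in the others, and its part in the plate difference was not tested. Pcp4, Syt6, Ntng1 and Fos were chosen after their values were seen. Robo3, Cadm2 and Nrxn3 differed by no more than 1.05-fold between the plates. For some genes the other wells shifted in the same direction: their Nwd2 was at 158 and 1285 CPM and their Pcp4 at 12.5 and 316 CPM. For some they did not. Cacna2d1 was at 207 and 56.9 CPM in the Cbln2 wells and at 779 and 801 CPM in the others. Lmo1 was at 458 and 225 CPM in the Cbln2 wells and at 238 and 343 CPM in the others. These examples were picked after their values were seen.

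Within the Cbln2 wells, 41 of 77 on plate 1 and 52 of 228 on plate 2 had at least 3 counts each of Lmo1 and Cntn2. On both plates these wells had more Dcc (9202 against 4706 CPM on plate 1, and 6087 against 4296 CPM on plate 2) and more Robo3 (1396 against 796 CPM, and 1531 against 959 CPM) than the Cbln2 wells without the pair. They had less Cntnap2 (145 against 337 CPM, and 503 against 2078 CPM), less Nwd2 (423 against 1044 CPM, and 2501 against 3267 CPM), and less Tac1 (261 against 599 CPM, and 219 against 348 CPM). They were also deeper, with medians of 12196 against 10266 counts and 14462 against 8339, and the part of depth in these differences was not tested. At the level of single wells Nwd2 reached 10 counts in 21 of 77 and 165 of 228 Cbln2 wells, against 4 of 111 and 15 of 74 others.

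Across the study, Cbln2 was low at E11, at 20.3 and 27.4 CPM over all kept wells, and stood at 99.0 CPM on the single E12 plate. The E13 plates followed with 359 and 185 CPM, the E15 plates with 371 and 821 CPM, and the E18 plates with 33.9 and 461 CPM. Later values were 228 and 207 CPM at P4, 240.0 and 312 CPM at P7, and 212 and 215 CPM in the adult. The 5 C57BL/6 plates at E18, deposited in a table of their own, lay between 225 and 317 CPM, with a mean of 258 ± 39.3 CPM (SD, n = 5). E15 plate 2 was the highest of all 20 plates, but E15 plate 1 was close to E13 plate 1 and below E18 plate 2, so the E15 mean of 596 ± 319 CPM (SD, n = 2) does not stand apart from its neighbours beyond its spread.

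The share of kept wells with at least 3 Cbln2 counts was 41.0% (exact 95% interval 33.9% to 48.3%) and 75.5% (70.2% to 80.2%) on the E15 plates. Of the earlier plates, those at E11 had 3.56% and 4.93%, the E12 plate 23.0% and those at E13 39.2% and 18.2%. Of the later plates of this line, E18 had 3.37% and 61.8%, P4 had 61.7% and 55.9%, P7 had 66.3% and 66.7%, and adult plates had 17.9% and 37.7%. The C57BL/6 plates ran from 43.5% to 52.3%. Depth differs between these plates, with medians of 8765 and 8133 counts at E15 and a range from 4408 to 28236 over the 20 plates. By the rate of at least 3 per 10000 counts the E15 shares were 38.8% and 79.8%, while those at P4 were 27.5% and 25.5% and those at P7 34.0% and 45.2%. By that rate E13 stood at 43.8% and 15.3% and E18 at 2.62% and 64.5%, so 1 plate of each was above E15 plate 1.

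**Figure D4:**
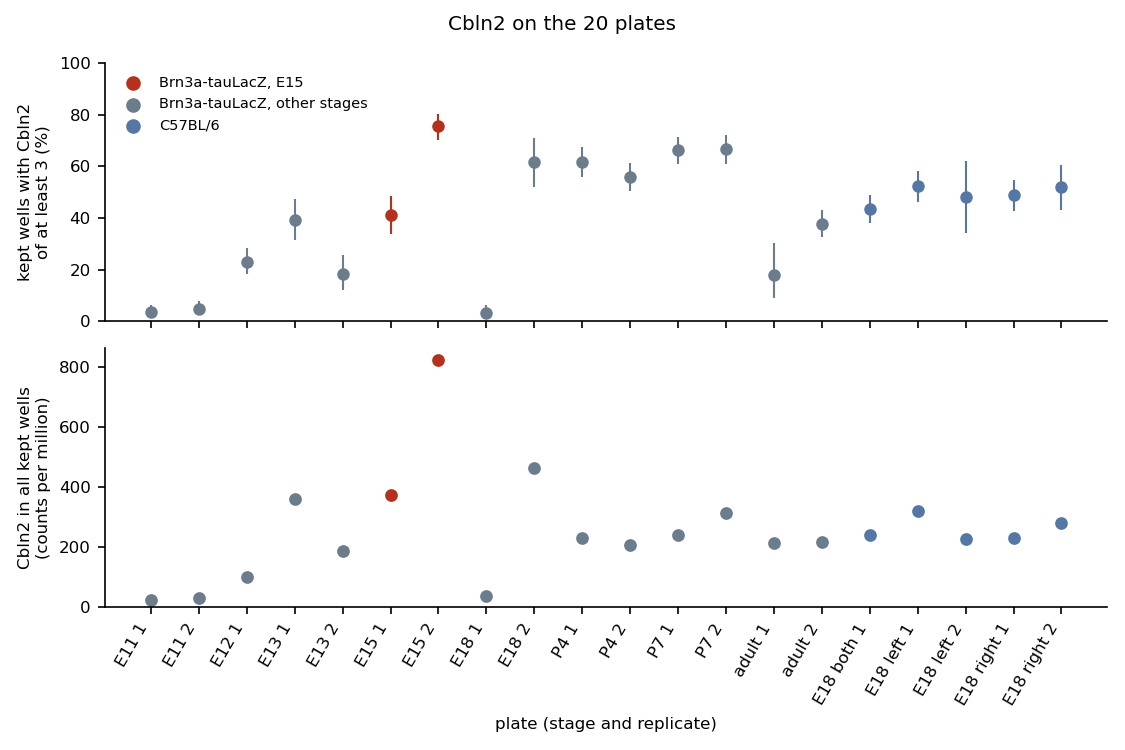
Upper panel: percent of kept wells with a Cbln2 count of at least 3 on each of the 20 plates, with exact 95% intervals; lower panel: Cbln2 in CPM over all kept wells of the plate. Red marks E15, grey the other stages of the Brn3a-tauLacZ line and blue the C57BL/6 plates. The E15 plates stand at 371 and 821 CPM, and the E11 plates at 20.3 and 27.4 CPM.

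The same threshold was applied to plates that played no part in choosing the wells. On the 5 C57BL/6 plates at E18, where stage, line and dissection differ from E15 together, 524 wells passed it and 558 did not, and 3930 of 15061 genes were called (26.1%), 1814 higher (12.0%) and 2116 lower (14.0%). At P4, 357 wells passed and 252 did not, and 993 of 13128 genes were called (7.56%), 310 higher (2.36%) and 683 lower (5.20%). The wells with Cbln2 were deeper there too, with plate medians of 20309 to 47389 counts against 10351 to 14138 at E18, and of 22254 and 23530 against 13280 and 13776 at P4. Of the 152 genes called higher at E15, 122 were called higher on the C57BL/6 plates and 49 at P4. Cbln2, whose call the threshold fixed, is among the 122 and the 49. Of the 173 called lower, 134 and 83 were called lower, and 6 and 8 genes were called in the opposite direction. Kcnip4, lower at E15, was among the 6, at 0.77 ± 0.20 on the C57BL/6 plates (adjusted p = 0.0125) and higher on 4 of the 5. Col4a2 was another (0.97 ± 0.28). Markers of other cells moved with these contrasts. All 11 progenitor genes were lower at both ages, among them Fabp7 (-5.74 at E18 and -4.82 at P4) and Hes1 (-4.97 and -4.15). Of the cell cycle genes tested 18 of 19 were lower at E18 and 7 of 15 at P4, and of the astrocyte and oligodendrocyte genes 7 of 10 and 7 of 9. Of the 10 genes of the response to dissociation 6 were lower at E18 and 7 at P4, and of the 10 neuron markers 10 were higher at E18 and 2 at P4. The part of these cells in the shared calls was not tested.

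Robo3 was higher in the wells with Cbln2 on all 5 C57BL/6 plates, at 365 to 805 CPM against 61.4 to 278 CPM (log2 difference 1.88 ± 0.25, adjusted p = 0.000144), and on both P4 plates (log2 difference 0.38 ± 0.08, adjusted p = 0.0011). Gm45341 was at 729 to 1317 CPM against 112 to 362 CPM at E18, with no overlap (2.17 ± 0.25), and at 2.19 ± 0.13 at P4. Tac1 (2.84 ± 0.23 and 2.11 ± 0.25) was also called at both ages. Ephb1 was at 1.00 ± 0.13 and 0.81 ± 0.11, close to its E15 value of 0.86 ± 0.16. Nfia, Pax6, Unc5c and Cacna2d1 were called lower at E18 and at P4. Nrxn3, at 0.43 ± 0.12 on the C57BL/6 plates, did not pass at P4 (log2 difference 0.31 ± 0.13, adjusted p = 0.151). Sdk2 passed at neither age (log2 difference 0.18 ± 0.11, adjusted p = 0.253 and log2 difference 0.41 ± 0.14, adjusted p = 0.0535).

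Other genes differed between ages. Dcc, lower in Cbln2 wells at E15 and on all 5 C57BL/6 plates (-0.99 ± 0.12), was not called at P4 (log2 difference 0.19 ± 0.08, adjusted p = 0.154). The difference between the E15 and P4 contrasts, tested in a fit over all stages and added after the data were seen, passed for 104 of 16517 genes (0.63%), 58 above 0 (0.351%) and 46 below (0.279%). It passed for Dcc, at -1.14 ± 0.21 (adjusted p = 0.000661). Dok6, Fstl5, Lsamp, Cntnap2 and Galnt13 had larger differences at E15 than at P4 by the same test, by 1.19 to 1.89 on the log2 scale. They were named for their E15 contrasts, which favours a larger value at E15. Of the cerebellin receptors, Grid1, higher at E15, was lower in the wells with Cbln2 at P4 (log2 difference -0.75 ± 0.17, adjusted p = 0.00122), and its contrast also differed between the ages (2.13 ± 0.51, adjusted p = 0.0193). Pou4f1 was higher on all 5 C57BL/6 plates (log2 difference 2.07 ± 0.21, adjusted p = 1.63e-05) and on both plates at P4 (log2 difference 0.33 ± 0.09, adjusted p = 0.0124). For Pou4f1 the E15 and P4 contrasts differed by 0.04 ± 0.27, which did not pass (adjusted p = 1.0).

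**Figure D5:**
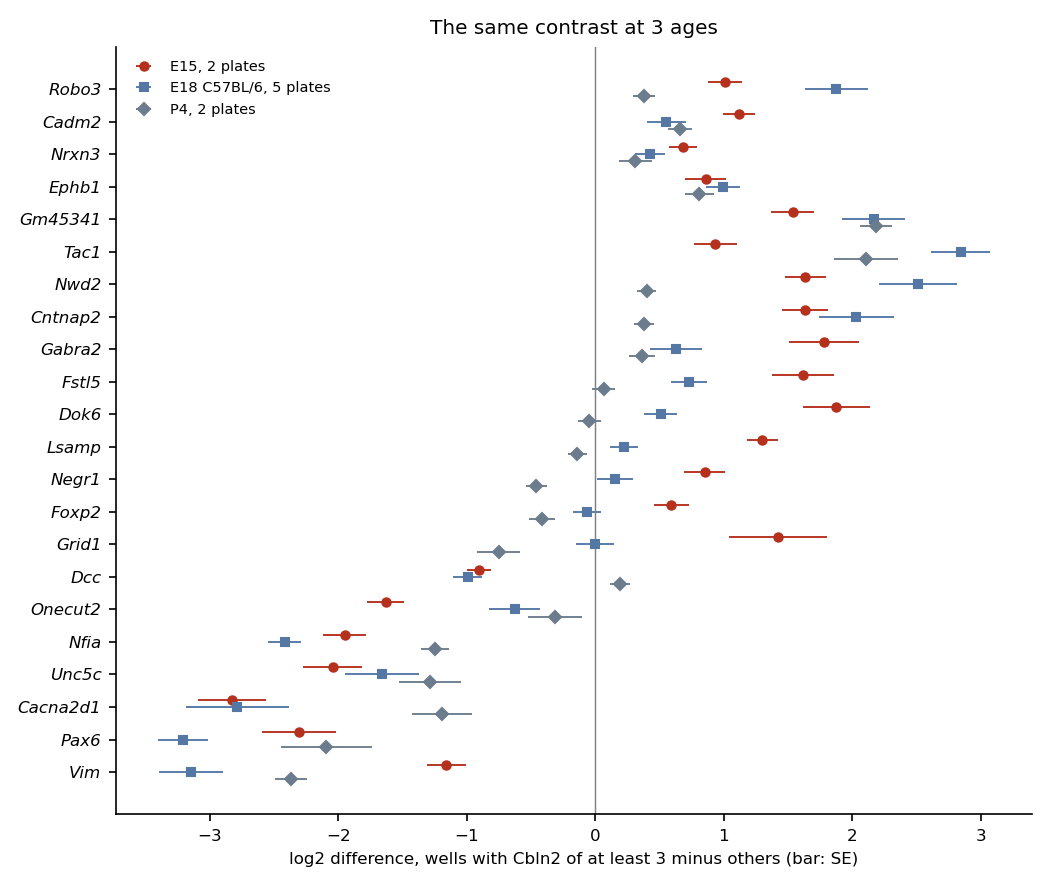
The log2 difference between wells with at least 3 Cbln2 counts and the other kept wells for 22 genes (bars are standard errors) at E15 (red, 2 plates), on the E18 C57BL/6 plates (blue, 5 plates) and at P4 (grey, 2 plates). Robo3, Gm45341 and Tac1 lie above 0 at all 3 ages, Nfia, Unc5c, Cacna2d1 and Pax6 lie below 0 at all 3, and Dcc lies at -0.90, -0.99 and 0.19.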

How the data were processed

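Wells of 20 Cel-seq2 plates were counted by the submitters. Per the submitters' processing notes, Trim Galore, STAR 2.5.3a and mm10 were used; the sources used here do not name the counter, annotation or strand setting. The deposited values are expected counts: UMI numbers corrected by the authors for 4096 possible UMIs, since the inverse gave whole numbers for 100% of values within 1e-06. The total equals spliced plus unspliced counts. GENCODE M21 gave coordinates for 37938 of 37994 gene identifiers.

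Counts of kept wells were summed per plate and class, rounded, and tested with edgeR 4.0.16 (filterByExpr, TMM, quasi-likelihood, Benjamini-Hochberg) in R 4.3.3, with the plate as a block, because both classes come from the same plate. Errors after ± are standard errors unless marked SD. Those of edgeR's log2 differences were computed from the test statistic, and so share the spread borrowed from other genes. DESeq2 1.42.0, other thresholds, filters, spliced counts, thinning and left-out plates were alternatives. Equal wells per depth bin, the removal of microglia and vascular wells, the E15 to P4 difference and a depth minimum for Pou4f1 wells were added after the data were seen. No doublet caller was run; leaving out wells above 3 times the plate median was an alternative. On simulated data of 9591 genes for the E15 comparison, 83 of 100 genes changed by 1 on the log2 scale were called. So were 100 of 100 changed by 2 and 8 of 9391 unchanged genes. All changed genes were drawn from those with a mean of at least 50 CPM. These rates describe simulated counts, not the deposited wells, and were not split further by gene level. They thus give no rate for genes of low level. Recovery with a depth difference between classes, or with counts held by few wells, was not tested.

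The wells, gene lists and comparisons were chosen with earlier results of these data known. Named genes were the 5 markers, the 12 largest rises and 10 largest falls past the threshold on both plates with a mean of at least 50 CPM, and up to 4 passing genes per list and direction; some of these are not reported here. The cell cycle (2 tested), astrocyte and oligodendrocyte (2 tested) and dissociation (7 tested) lists had 0 passing genes at E15 and are given by counts alone.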

Additional observations from a re-analysis of the deposited data

Results flagged for a closer look

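The E15 and P4 contrasts of Cbln2 wells against other wells differed for 20 named genes in edgeR's quasi-likelihood fit over all stages, with Benjamini-Hochberg adjustment. Over all genes they differed for 104 of 16517 (0.63%). Many named genes were chosen by their E15 contrast, which favours a larger contrast at E15 than at P4. Each value is the E15 log2 difference minus that at P4. Genes higher in Cbln2 wells at E15 with a larger difference there than at P4 were Dok6 (1.89, adjusted p = 0.000667), Fstl5 (1.51, adjusted p = 0.00238), Lsamp (1.40, adjusted p = 0.00034), Gabra2 (1.38, adjusted p = 0.0228), Galnt13 (1.21, adjusted p = 0.00918), Cntnap2 (1.19, adjusted p = 0.0136) and Nrg3 (1.04, adjusted p = 0.0168). For Negr1 (1.27, adjusted p = 0.000855), Grid1 (2.13, adjusted p = 0.0193) and Foxp2 (0.96, adjusted p = 0.0388) the P4 contrast was below 0 and past the threshold. The E15 contrasts of Dok6, Negr1 and Foxp2 passed neither by the rate rule (0.78, 0.26 and 0.01) nor with equal wells per depth bin (0.71, 0.66 and 0.25). That of Grid1 did not pass by the rate rule (1.04) and was not tested with equal wells, and that of Gabra2 did not pass with equal wells (1.54). The difference between ages was not tested with depth controlled.

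Genes lower in Cbln2 wells at E15 with a contrast more negative than at P4, where that of Dcc was above 0, were Cacna2d1 (-1.69, adjusted p = 0.01), Chrm3 (-1.41, adjusted p = 0.0325), Dcc (-1.14, adjusted p = 0.000661), Onecut2 (-1.36, adjusted p = 0.00348) and Pcdh19 (-2.05, adjusted p = 0.00918); the E15 contrast of Chrm3 did not pass with equal wells (-1.12). Ctsd (-2.15, adjusted p = 0.00101) and Selenop (-3.11, adjusted p = 0.00283) also had a more negative contrast at E15, Ctsd with a P4 contrast of 0.079, and most of their E15 counts in other wells of plate 2 came from 2 wells with microglia markers. The E15 contrast was less negative than that at P4 for Fabp7 (2.78, adjusted p = 0.000498), Ptn (1.91, adjusted p = 0.000152) and Vim (1.15, adjusted p = 0.0126). The vascular gene Col4a2 was higher in wells with Cbln2 on the C57BL/6 plates at E18 (0.97) and lower at E15 (-1.76) on every plate, a difference that was not tested. Without the 7 wells with microglia or vascular markers its E15 value was -0.27 (adjusted p = 0.939), and against Pou4f1 wells it was -0.33 (adjusted p = 0.911).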

How the results depend on the processing

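The 325 calls at E15 became 0 with no replicate block, 64 with DESeq2, 499 with no filter on low counts, 161 on spliced counts, 211 and 214 with Cbln2 thresholds of 2 and 5, 19 with wells thinned to 2000 UMIs and 133 with equal wells per depth bin. Leaving out a plate, with the spread pooled over stages, gave 104 to 361. Against Pou4f1 wells, 251 became 0 with no replicate block and 47 with DESeq2. The C57BL/6 count of 3930 became 2133 with no replicate block and 2845 to 3893 with each plate left out. The P4 count of 993 became 422 with no replicate block and 205 with DESeq2. Shares of Cbln2 wells were 50.0% and 83.1% at a threshold of 2, and 27.7% and 63.6% at 5.

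These log2 differences changed sign, and the cause was not tested. Leaving out each plate in turn gave -0.36 to 0.486 for Cbln1, -0.293 to 0.124 for Cntn2, -2.86 to 0.0316 for Ctsd, -2.20 to 0.0966 for Gabrg3, -0.389 to 1.00 for Lmo1 and -0.217 to 0.22 for Slc17a6. A threshold of 5 gave -0.0788 for Cbln1, -0.0492 for Lmo1 and -0.0117 for Nlgn2. The rate rule gave -0.304 for Cbln4 and -0.12 for Sdk2. Cbln1 was at -0.0233 against wells with no Cbln2, -0.136 without the deepest wells, -0.0518 with stricter well filters and -0.529 with equal wells per depth bin. Sema6d was at -0.152 on spliced counts and Apoe at 0.0219 without microglia and vascular wells. Of these, Apoe, Ctsd, Gabrg3 and Sema6d had passed the test. Of 85 named genes, 40 kept their direction and side of the threshold with DESeq2 and 11 with no replicate block. Some of the 85 were chosen after their values were seen, and some had not passed at E15.

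With 4 sums and 2 plates, the spread rests on few libraries, and well depth limits detection of single genes.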
